A study of Mus musculus with 50 samples.

Results

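Thyroid glands of mice given only a control antibody were compared at 7 days and at 15 hours after the injection. The members are the 10 libraries titled RW thyroid, 5 at 7 days and 5 at 15 hours, of 50 libraries in the whole series, and they were taken from the titles without use of any measured value. RW is an antibody against ragweed, a plant antigen absent from mice, given here as isotype control at 40 mg/kg in a single intraperitoneal dose. All mice were male C57BL/6 mice, described as Normal, aged 10 to 12 weeks in one place of the study's description and 10 to 14 weeks in another. Thyroid RNA was read as 50 bp single-end reads on an Illumina HiSeq instrument. The wider study gave other mice antibodies that block Notch receptors or their Jagged ligands. Of those, only the mice given anti-Jag1 and anti-Jag2 (aJ1aJ2, 20 mg/kg each) at 15 hours and in the first 7-day set, 5 libraries each, and 5 RW libraries at 5 days are used below.

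The labels limit what this comparison can show. The study's description mentions daily thyroxine (T4) and triiodothyronine (T3) injections from day 2, and no label says which mice received them. No source used here gives the hour of day of collection. The sample IDs in the titles come from separate series at 15 hours, 5 days and 7 days, so time after the antibody and ID series cannot be told apart. Nothing in the labels says beyond the replicate numbers that libraries came from separate animals, and p-values measure only the spread between these libraries.

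As background, follicle cells of the thyroid store thyroglobulin (encoded by Tg), iodinate it and release thyroid hormone on stimulation through the thyrotropin receptor (Tshr). Like most tissues, the thyroid also holds a molecular clock. In that clock BMAL1 (encoded by Arntl), paired with CLOCK or NPAS2, switches on genes such as Per1, Per2, Per3, Nr1d1 and Dbp through E-box sequences, and their products repress the activators, so that the activators and their targets peak at opposite times of day.

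The 10 libraries held 25224519 to 35828295 assigned reads at 15 hours and 19590732 to 29599921 at 7 days, and 23956 to 25982 genes had at least 1 read in a library. Levels below are CPM, reads scaled to a common library total, adjusted by the trimmed mean of M values (TMM) unless stated, and fold changes are 7 days over 15 hours. Where a level is compared between genes, it is given in FPKM, which divides by gene length. A difference was called at a Benjamini-Hochberg adjusted p below 0.05 in edgeR's quasi-likelihood test over all 17778 genes tested. Genes are also counted by list, such as clock or liver genes. The genes of the lists were chosen with earlier results of these data known. The share of a list that was called, set beside the share of all genes, may partly reflect that choice.

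Tg, the defining gene of the thyroid, was abundant in each of the 10 libraries. It took 25.9%, 22.8%, 31.3%, 33.2% and 14.5% of all reads at 15 hours (replicates 1 to 5) and 29.8%, 30.9%, 29.8%, 36.5% and 22.9% at 7 days. The lowest share belonged to 15-hour replicate 5, and the groups overlapped. Tissue from beside the follicles was present as well. Pth, the parathyroid hormone gene, ran from 2080.0 to 8119.6 CPM at 15 hours and from 6292 to 11004 CPM at 7 days, and Calca, which encodes the calcitonin of C cells, from 1144 to 3617 CPM and from 1721 to 3105 CPM. The summed CPM of 9 C cell genes was 4552.5 to 10963 at 15 hours and 11022 to 17718 at 7 days, without overlap. That of 5 parathyroid genes was 4033 to 15107 and 13688 to 27112, with overlap. The 2 lists share Chga. Their median log2 differences were 0.17 and 1.05, and no gene of either was called (lowest adjusted p = 0.07). Muscle also varied between libraries. The summed CPM of 13 skeletal muscle genes spanned 653 to 81979 at 15 hours and 1517 to 24569 at 7 days. In bulk tissue, fewer cells of a type and less RNA per cell cannot be told apart.

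Genes of thyroid hormone production ranged widely in FPKM and did not pass the test for a change with time. Tg stood at 1514 ± 389.7 FPKM (SD, n = 5) at 15 hours and 1776 ± 411 at 7 days. Below it came Iyd, which recovers iodide from iodotyrosines, with 53.1 ± 20.4 and 47.4 ± 13.6 FPKM. Dio1, a deiodinase, was at 27.2 ± 12.5 and 25.3 ± 5.61, and Slc5a5, the sodium-iodide symporter, at 24.2 ± 14.0 and 37.5 ± 9.94. Dio1 and Slc5a5 did not differ beyond their spread at 15 hours. Slc26a7, an anion transporter of the follicle cell, was at 7.12 ± 2.74 and 7.82 ± 1.64 FPKM. Of the pair of hydrogen peroxide generators, Duox2 stood at 3.18 ± 0.982 and 2.60 ± 0.421 FPKM, and Duox1 at 0.0782 ± 0.0578 and 0.0434 ± 0.00709. Slc26a4, which encodes pendrin, was near the floor at 0.00809 ± 0.00374 and 0.00723 ± 0.00229 FPKM, and like Kcne2 it was too low to be tested.

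None of the 15 tested genes of the hormone production list was called, beside 2.51% of all genes tested. The median log2 fold change of the list was 0.04, against -0.02 over all genes. The values nearest to a call were Dio2, which activates T4 to T3, at 0.65 ± 0.22 (SE, adjusted p = 0.151), and Duox1 at -0.83 ± 0.40 (adjusted p = 0.305). Tg itself differed by 0.24 ± 0.33 (adjusted p = 0.74). No gene of this list was called in any of the 11 other analyses or after leaving out any 1 library.

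**Figure D1:**
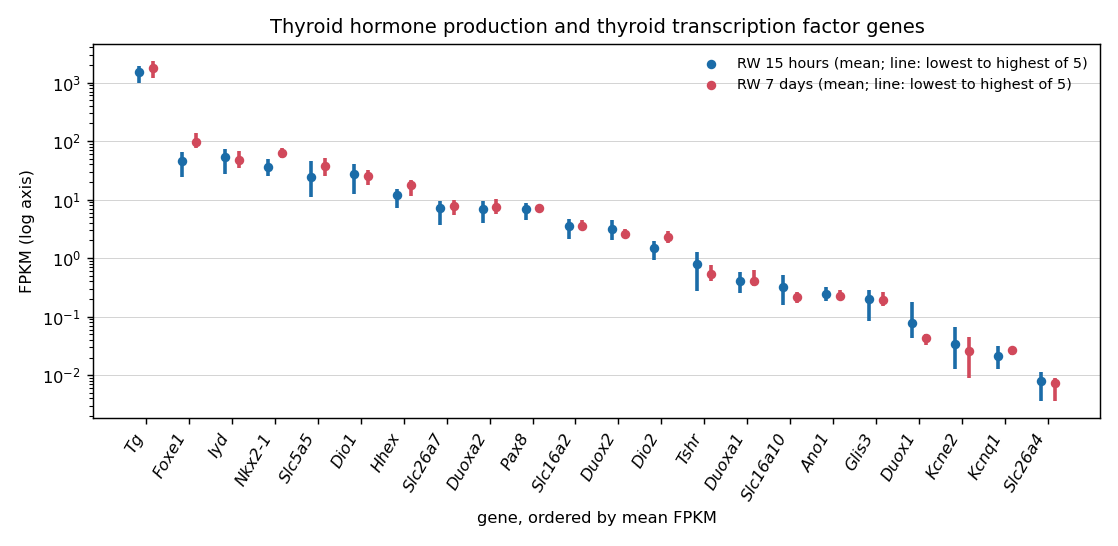
FPKM (log axis) of the genes of thyroid hormone production and of the thyroid transcription factors and Tshr in the RW libraries. Points are means of 5 libraries and lines run from the lowest to the highest library, blue for 15 hours and red for 7 days. Tg stands above all other genes of the plot, and the lines of Foxe1 and Nkx2-1 do not overlap between the times.

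Among the thyroid transcription factors, Foxe1 was higher at 7 days. Foxe1 levels were 132, 99.9, 109, 163 and 60.9 CPM at 15 hours and 208, 228, 187, 251 and 347 CPM at 7 days. Each 7-day library lay above each 15-hour library, a 2.17-fold difference (log2 1.12 ± 0.25, adjusted p = 0.0465). Nkx2-1, which acts with Foxe1 and Pax8 on the Tg promoter, had 153, 152, 169.6, 214 and 109 CPM and then 225, 249, 225, 331 and 333 CPM. Its groups did not overlap either, at a log2 difference of 0.78 ± 0.19 and an adjusted p of 0.0606, which missed the threshold. Pax8 differed by 0.04 and Tshr by -0.61, neither called. The Foxe1 call was lost in 8 of 10 fits that left out a library, and in 7 of the 11 other analyses, among them a fit corrected for GC content, where its log2 difference was 0.72 (adjusted p = 0.129).

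Over all genes, 447 were called between the 2 times (2.51%), 345 higher at 7 days (1.94%) and 102 lower (0.574%). Of these, 250 differed at least 2-fold. Genes whose groups did not overlap in CPM numbered 1085 (6.10%). The number of calls rested on single libraries. It was 227, 146 and 268 without replicate 2, 3 or 5 at 15 hours, and 215, 207, 248 and 221 without replicate 1, 2, 3 or 4 at 7 days. Without 7-day replicate 5 it was 1416, of which 55.7% were higher in place of 77.2%.

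The called clock genes of the E-box phase and of the activator phase differed in opposite directions. Of 13 genes of the E-box phase, the targets and repressors of BMAL1, 6 rose, beside 1.94% of all genes. None fell, and the median log2 difference was 0.72. Of 5 genes of the opposite, activator phase, 2 fell, beside 0.574% of all genes. None rose, and the median was -1.64. The stretches before the starts of 3 of the E-box-phase genes are shown because they hold the motifs through which clock genes are known to be driven. Each is the 250 bases before a RefSeq start on GRCm38.p6, read 5′ to 3′ along the gene, with capitals marking the E-box CACGTG or the D-box TTATGTAA.
Ciart (chr3:95882229-95882478, minus strand): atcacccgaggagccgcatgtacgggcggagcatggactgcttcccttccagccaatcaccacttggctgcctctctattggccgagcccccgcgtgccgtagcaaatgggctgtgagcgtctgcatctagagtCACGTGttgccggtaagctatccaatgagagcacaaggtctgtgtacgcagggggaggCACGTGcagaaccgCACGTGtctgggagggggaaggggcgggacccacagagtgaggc
Per1, upstream of its 2 starts (chr11:69098699-69098948, plus strand): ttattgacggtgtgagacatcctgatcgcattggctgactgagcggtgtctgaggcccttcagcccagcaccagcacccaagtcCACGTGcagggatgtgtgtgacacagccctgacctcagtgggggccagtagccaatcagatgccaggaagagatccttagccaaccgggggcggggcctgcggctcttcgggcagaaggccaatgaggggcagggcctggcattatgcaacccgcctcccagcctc
Per3 (chr4:151044666-151044915, minus strand): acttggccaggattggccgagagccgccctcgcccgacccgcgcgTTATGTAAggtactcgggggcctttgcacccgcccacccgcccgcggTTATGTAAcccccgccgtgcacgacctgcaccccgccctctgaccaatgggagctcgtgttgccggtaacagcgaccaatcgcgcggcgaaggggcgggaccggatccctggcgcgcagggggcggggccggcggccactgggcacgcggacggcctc

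Both strands were searched for CACGTG, bound by CLOCK and BMAL1, for TTATGTAA, bound by DBP, TEF, HLF and NFIL3, and for TAGGTCA, bound by REV-ERB receptors. Ciart, which encodes a repressor of CLOCK and BMAL1, held 3 E-boxes, with first bases at -116, -58 and -44, where -1 is the last base before the start. Per3 held 2 D-boxes, at -205 and -158, and the upstream of the 2 Per1 starts held 1 E-box at -166. RefSeq promoters were found for 11 of the 13 E-box-phase genes, and 5 of these 11 (Per1, Cry1, Tef, Ciart and Bhlhe41) had an E-box in the window. Of those 5 only Ciart was called between the times, and the called genes Dbp, Hlf, Nr1d2 and Per3 had none in the window. For comparison, 6.02% of all 32851 promoters of that length held an E-box, 0.819% the D-box and 2.23% TAGGTCA. Of the 4 activator-phase genes with a promoter, Nfil3 had 1 TAGGTCA, at -12, and the other three had no match to any of the motifs. No matches of different motifs overlapped. A match is a run of letters, not a shown binding site.

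Dbp, a transcription factor that reads out the clock through D-boxes, moved most among them. Its levels were 2.80, 3.95, 4.87, 6.93 and 6.64 CPM in the 15-hour libraries and 50.2, 53.2, 65.1, 71.4 and 90.6 CPM in the 7-day libraries. The lowest 7-day library lay far above the highest 15-hour library, and the fitted difference was 13.1-fold (log2 3.72 ± 0.27, adjusted p = 0.000237). Hlf, of the same family, had 6.29, 12.6, 9.35, 13.2 and 12.9 CPM and then 22.3, 22.5, 30.2, 26.8 and 29.9 CPM, with no overlap and a 2.43-fold rise (log2 1.28 ± 0.20, adjusted p = 0.013). The third member, Tef, overlapped between the groups and was not called (log2 0.72 ± 0.36, adjusted p = 0.331). Its levels at 15 hours were split, with 42.1, 146, 55.6, 61.2 and 171 CPM in replicates 1 to 5.

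Of the Period genes, which encode repressors of the loop, Per2 and Per3 rose and Per1 was not called. Per2 stood at 10.1, 16.7, 11.3, 14.2 and 16.4 CPM at 15 hours and 47.2, 40.5, 56.9, 37.8 and 28.5 CPM at 7 days. Per3 stood at 8.97, 20.0, 12.1, 19.2 and 24.1 CPM and 41.9, 46.6, 59.3, 49.4 and 49.3 CPM. In both genes each 7-day library exceeded each 15-hour library, and both rose, Per2 by 1.63 ± 0.20 (adjusted p = 0.00546) and Per3 by 1.55 ± 0.24 (adjusted p = 0.013) on the log2 scale. Per1 had 18.2, 74.3, 25.7, 27.8 and 41.4 CPM and then 80.9, 87.4, 128, 108 and 76.4 CPM. The groups did not overlap, though 15-hour replicate 2 came close to the lowest 7-day library, and the difference of 1.37 ± 0.34 was not called (adjusted p = 0.0673).

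Of the nuclear receptors that repress Arntl, Nr1d2 rose and Nr1d1 was not called. Nr1d2 had 34.9, 45.6, 35.8, 48.2 and 49.9 CPM at 15 hours and 55.9, 68.0, 73.1, 69.6 and 79.8 CPM at 7 days, without overlap (log2 0.70 ± 0.13, adjusted p = 0.0232). Nr1d1 had 98.1, 146, 131, 154 and 177 CPM and 146, 123, 162, 172 and 155 CPM, fully overlapping (log2 0.11 ± 0.16, adjusted p = 0.746). Ciart was low at both times, 1.06, 0.887, 1.04, 1.47 and 1.06 CPM and then 2.17, 1.98, 2.29, 1.74 and 1.87 CPM, and the groups did not overlap (log2 0.87 ± 0.18, adjusted p = 0.0378). The Nr1d2 call was lost in 5 and the Ciart call in 8 of the 10 fits without a library. Cry1, Cry2, Bhlhe40 and Bhlhe41, further repressors, were not called, with log2 differences of -0.43, 0.26, -0.11 and 0.67.

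On the activator side, Arntl had 48.9, 42.1, 47.8, 38.8 and 43.7 CPM at 15 hours and 15.0, 15.3, 9.85, 11.3 and 8.37 CPM at 7 days. All 7-day libraries were lower, and Arntl fell 3.68-fold (log2 -1.88 ± 0.17, adjusted p = 0.000918). Npas2, the partner that can replace CLOCK, had 41.4, 28.0, 38.3, 31.8 and 25.2 CPM and then 10.5, 13.1, 8.46, 10.9 and 9.54 CPM, a 3.13-fold fall without overlap (log2 -1.64 ± 0.17, adjusted p = 0.00158). Clock itself differed by -0.23 ± 0.16 and was not called (adjusted p = 0.484). Nfil3, a repressor that competes with DBP for D-boxes, ran at 8.49, 21.3, 7.28, 2.92 and 22.8 CPM and 3.58, 2.30, 3.64, 2.15 and 2.58 CPM. Its groups overlapped through 15-hour replicate 4, and the difference of -2.12 ± 0.51 missed the threshold (adjusted p = 0.0577).

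Dbp, Per2, Per3, Hlf, Arntl and Npas2 kept their calls in each of the 11 other analyses and without any 1 of the 10 libraries. Arntl shares exon bases with an unnamed gene on the other strand, Dbp with Sphk2 and Nr1d1 with Thra in GENCODE M21. Such overlap holds for 13 of the 50 named genes with a call, with Scand1, Elovl3, Foxe1, Rbm3 and Nrarp among them. No source used here says whether reads were counted by strand, so part of these counts could belong to the neighbour.

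The RW libraries at 5 days, from another ID series, had other clock gene levels. Dbp was at 1.49, 1.27, 3.08, 2.05 and 0.972 CPM there, below each 15-hour library except in replicate 3. Arntl was at 54.4, 63.8, 90.4, 51.7 and 66.2 CPM, above each 15-hour library. Per2 was at 36.4, 38.4, 10.5, 26.8 and 26.7 CPM and Per3 at 10.8, 7.50, 14.5, 11.4 and 10.3 CPM. Per2 lay above the 15-hour range in 4 of the 5 libraries, and Per3 lay within it in all but replicate 2. Replicate 3 at 5 days stands apart, with 0.450% of its reads on Tg. These libraries entered no test and no fit corrected for GC content. Genes of high GC content were low in them, as given below, and Dbp has 61.6% GC. Scand1 (68.4% GC) had a mean of 0.153 CPM at 5 days and 2.18 CPM at 15 hours. Foxe1 (62.8% GC) had means of 27.1 and 113 CPM. Whether the Dbp level at 5 days goes with GC content was not tested.

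**Figure D2:**
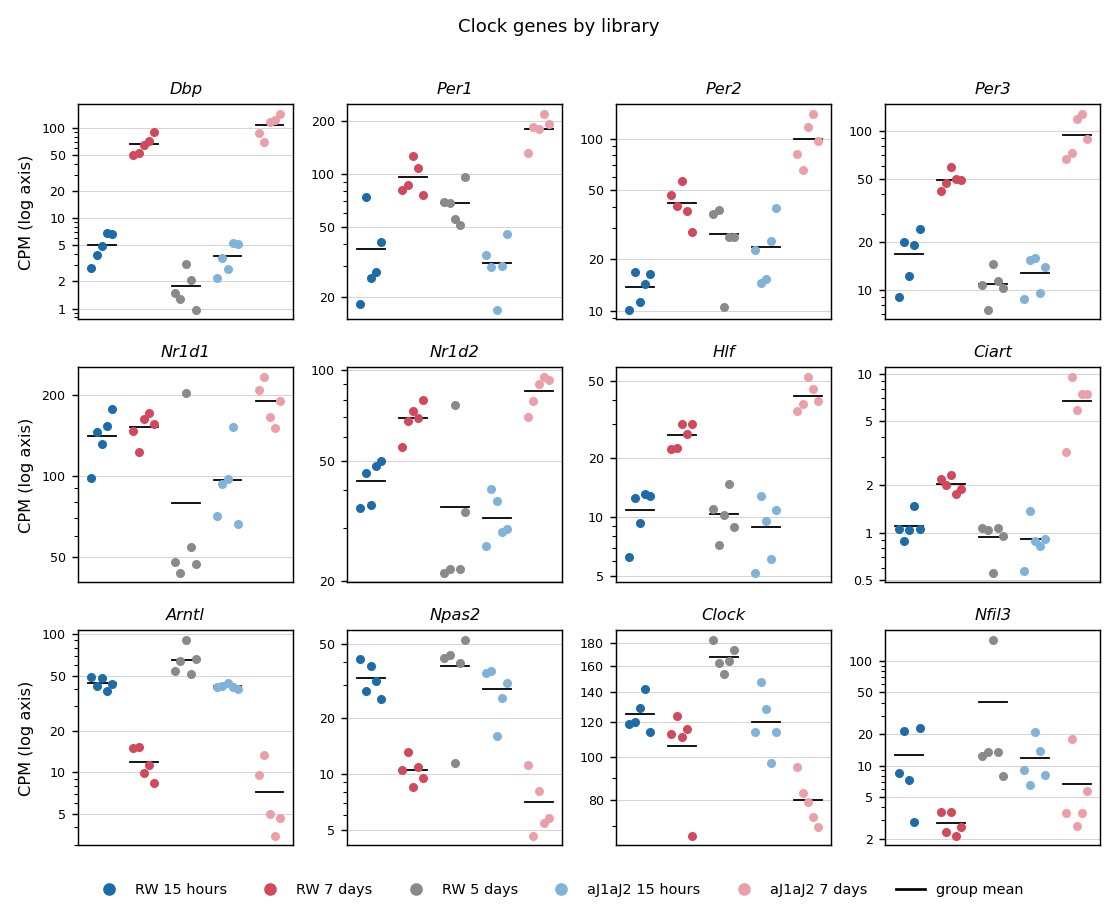
CPM (log axis, a separate scale for each gene) of 12 clock genes in each library, with bars for the mean of 5 libraries. Red (RW 7 days) lies above blue (RW 15 hours) without overlap for Dbp, Per1, Per2, Per3, Nr1d2, Hlf and Ciart, and below it for Arntl and Npas2, while the RW libraries at 5 days (grey) lie low for Dbp and high for Arntl.

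Of 20 genes of the hepatocyte, 7 rose, beside 1.94% of all genes, 13 were not called and none fell. The median log2 difference was 2.32, and 14 of the 20 had all 7-day libraries above all 15-hour libraries, beside 4.23% of all genes. Alb, which encodes serum albumin, had 140.3, 115, 30.9, 108 and 32.8 CPM at 15 hours and 1487, 318, 307, 456 and 325 CPM at 7 days. Each 7-day library was higher, replicate 1 by far the most (log2 2.77 ± 0.62, adjusted p = 0.0496). Mup3, one of the major urinary protein genes, had 7.72, 5.77, 2.18, 4.81 and 1.60 CPM and then 87.7, 19.9, 21.4, 30.3 and 28.2 CPM, an 8.53-fold rise (adjusted p = 0.0257). Apoa2, an apolipoprotein gene, had 15.9, 9.88, 4.90, 9.46 and 3.40 CPM and then 104, 26.7, 25.1, 44.6 and 36.7 CPM (log2 2.45 ± 0.52, adjusted p = 0.0447). In each of these genes 7-day replicate 1 was the highest of the 10 libraries.

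Among the 10 genes named for the largest rise without overlap were Dbp and Scand1, described elsewhere, and 8 that no list held. Cyp3a11, a cytochrome P450 gene that metabolises drugs, had 4.52, 2.54, 0.779, 2.20 and 0.802 CPM at 15 hours and 80.3, 16.9, 23.6, 28.0 and 20.9 CPM at 7 days, 15.7-fold higher (log2 3.97 ± 0.64, adjusted p = 0.0163). Uox, which encodes urate oxidase, rose 13.5-fold, Abcc2, a canalicular export pump, 13.7-fold, and Fabp1, the liver fatty acid binding protein gene, 10.0-fold. Mug1 and Pzp, plasma protease inhibitor genes, rose 15.3-fold and 10.9-fold, Apoa5 11.1-fold and Hrg, a plasma glycoprotein gene, 9.86-fold. The calls of Cyp3a11 and Fabp1 held without any 1 library and in all 11 other analyses. Those of Pzp, Hrg, Mug1 and Apoa5 were lost in 9, 5, 3 and 1 of the 10 fits without a library, and those of Abcc2 and Uox in 4 and 3 of the 11 other analyses. Major urinary protein genes are near-identical copies of each other, so reads may be split among them. Mup17, of the same family and list, differed by -2.31 and was not called.

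Cyp2e1, another P450 gene of the list that other tissues also express, differed in its pattern. It had 96.5, 58.7, 20.5, 70.2 and 86.3 CPM at 15 hours and 301, 190.1, 163, 201 and 310.2 CPM at 7 days, and replicate 5 was its highest 7-day library in place of replicate 1 (log2 1.82 ± 0.37, adjusted p = 0.0324).

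The summed CPM of the 20 liver genes was 113 to 467 at 15 hours, 769.8 to 3079 at 7 days and 47.5 to 287 at 5 days, where Alb was at 0, 0, 0.0932, 0 and 0 CPM. The number of liver genes called ranged from 1 to 11 over the fits that left out a library. It was 1 without 15-hour replicate 2, 3 or 4 or 7-day replicate 4, and from 1 (with no filter on low counts) to 17 over the other analyses. Among the list's genes printed above, the call was lost without a library in 9 of 10 fits for Alb, 8 for Apoa2, 6 for Cyp2e1 and 5 for Mup3. The source of the liver transcripts was not tested.

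Of 23 genes of collagens and collagen folding, 6 fell, beside 0.574% of all genes, 17 were not called and none rose. The median log2 difference was -0.51. In 9 genes all 7-day libraries lay below the 15-hour libraries, beside 1.87% of all genes. Col3a1, a fibrillar collagen gene, had 269, 289, 263, 253 and 437 CPM at 15 hours and 79.9, 109, 139, 120.5 and 159 CPM at 7 days. The groups did not overlap although 15-hour replicate 5 stood above its group, and Col3a1 fell 2.48-fold (log2 -1.31 ± 0.21, adjusted p = 0.0133). Col6a1, of the beaded-filament collagen VI, had 92.5, 114, 89.8, 92.3 and 135 CPM and then 47.3, 56.1, 61.0, 55.9 and 61.1 CPM (log2 -0.89 ± 0.13, adjusted p = 0.0118). Its partner chain Col6a2 had 138, 141, 137, 161 and 141 CPM and then 79.1, 87.4, 96.2, 99.6 and 100.4 CPM (log2 -0.63 ± 0.10, adjusted p = 0.013). These 2 collagen VI chain genes were thus lower in each 7-day library than in each 15-hour library. Col5a3, a collagen V chain gene, had 33.2, 49.0, 32.2, 33.7 and 49.4 CPM and 21.2, 14.7, 20.2, 21.5 and 21.0 CPM and fell by 1.99-fold (adjusted p = 0.0132).

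Col3a1 and Col6a1 kept their calls in all other analyses and without any 1 library, and the list's count ranged from 5 to 12 with 1 library left out and from 3 to 14 over the other analyses. The sums of the list did not overlap, at 2755 to 3321 CPM at 15 hours and 1853 to 2322 CPM at 7 days. At 5 days they were 3242 to 4611 CPM.

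Fibroblast markers moved less as a list, with 1 of 11 called lower, beside 0.574% of all genes, and a median of -0.37. The called gene was Pdgfra, a platelet-derived growth factor receptor gene that marks fibroblasts, with 44.3, 58.1, 55.2, 49.9 and 64.0 CPM at 15 hours and 34.1, 25.1, 34.0, 30.4 and 34.6 CPM at 7 days. All 7-day libraries were lower (log2 -0.77 ± 0.12, adjusted p = 0.0132). Gsn, the fibroblast marker of highest level, overlapped (log2 -0.35 ± 0.18, adjusted p = 0.327).

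Other genes named for a large fall were of mixed kind. Dok5, which encodes an adaptor of receptor tyrosine kinases, had 11.7, 6.73, 10.1, 8.27 and 8.79 CPM and then 2.66, 2.95, 2.16, 3.66 and 3.79 CPM. Its groups did not overlap and the fall of 2.99-fold (log2 -1.58 ± 0.20, adjusted p = 0.00551) held in each other analysis and without any 1 library. Spon2, a secreted matrix protein gene, fell 6.93-fold, Csmd2 3.70-fold, Tmprss13, a membrane serine protease gene, 2.94-fold, and Fst, the activin antagonist follistatin, 2.67-fold. The calls of Fst, Csmd2 and Spon2 were lost in 8, 7 and 3 of the 10 fits without a library, and that of Tmprss13 in 2 of the 11 other analyses. Cdkn1a, the cell cycle inhibitor p21, had 44.0, 76.8, 70.3, 30.4 and 59.7 CPM and 30.7, 22.7, 25.1, 22.8 and 35.2 CPM. Its groups overlapped, and its call (log2 -1.04 ± 0.24, adjusted p = 0.0498) was lost in 8 of 10 fits without a library and in 7 of the 11 other analyses.

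**Figure D3:**
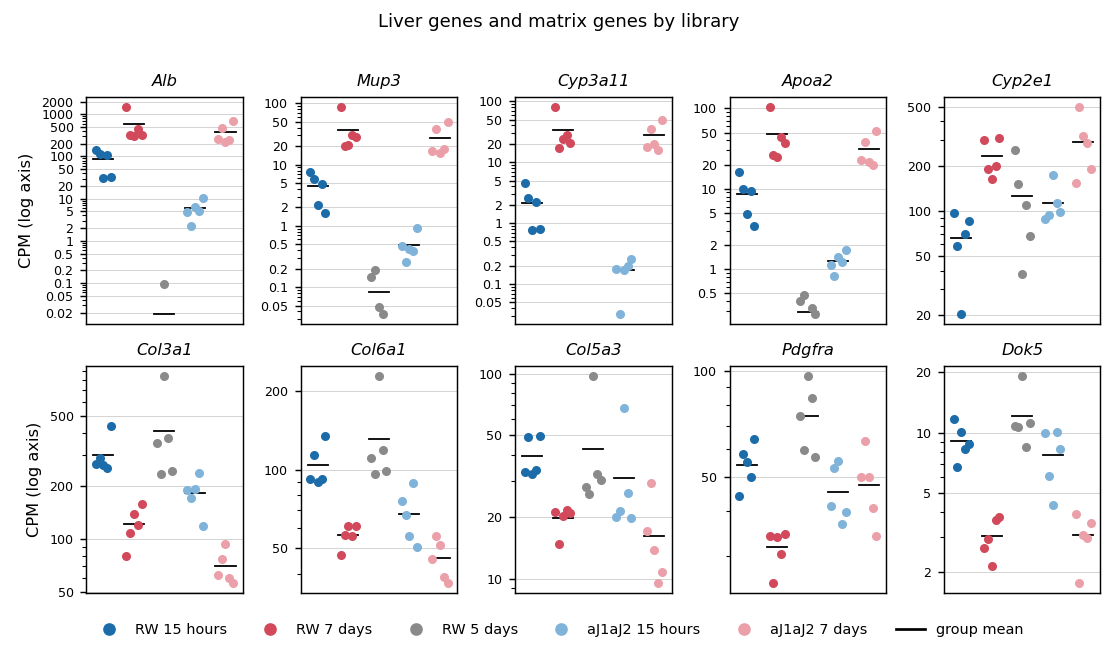
CPM (log axis, a separate scale for each gene) of 5 liver genes (upper row) and 5 matrix or stromal genes (lower row) in each library, with bars for the mean of 5 libraries. Libraries at 0 CPM cannot be drawn on the log axis, which concerns the RW 5-day libraries of Alb, Mup3 and Cyp3a11. In RW the 7-day libraries lie above the 15-hour libraries for the liver genes and below them for the matrix genes, without overlap.

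Brown fat genes gave 2 calls of 9, both higher, beside 1.94% of all genes called higher. The median was 0.65, with 5 genes above 0 and 4 below, the lowest at -0.87. Elovl3, a fatty acid elongase gene of brown fat, had 0.600, 0.403, 0.0974, 0.336 and 0.160 CPM at 15 hours and 5.42, 3.36, 3.24, 2.06 and 9.50 CPM at 7 days. It was near the floor in each 15-hour library and did not overlap, a 14.6-fold rise (log2 3.86 ± 0.54, adjusted p = 0.00814). Otop1, a proton channel gene of brown fat, had 4.77, 7.38, 2.70, 3.52 and 5.45 CPM and then 17.5, 16.3, 17.0, 9.42 and 17.6 CPM (log2 1.72 ± 0.27, adjusted p = 0.0132). Ucp1, the uncoupling protein gene that defines brown fat, had 29.6, 113, 23.1, 28.4 and 65.2 CPM and 221, 195, 298, 76.2 and 322 CPM. One 7-day library, replicate 4, lay below 15-hour replicate 2, and the difference of 2.12 ± 0.52 was not called (adjusted p = 0.0655). Both calls of the list held without any 1 library and in all other analyses.

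General adipocyte genes were not called (0 of 11, median 0.69), Fabp4 among them with 265 ± 89.3 CPM (SD, n = 5) at 15 hours and 500.1 ± 218 CPM at 7 days. Scd1, the stearoyl-CoA desaturase gene, one of the 20 most abundant transcripts, had 1837, 1374, 1154, 1199 and 1105 CPM and then 5865, 3771, 3261, 2635 and 3203 CPM. Each 7-day library was higher, and Scd1 rose 2.82-fold (log2 1.50 ± 0.26, adjusted p = 0.0169), a call lost without 15-hour replicate 3. Single calls came from Ehhadh of fatty acid oxidation (0.38, adjusted p = 0.0496), Pfkfb3, a regulator of glycolysis (0.70, adjusted p = 0.0311), and Cox8a, a subunit gene of complex IV (0.87, adjusted p = 0.036). Without a library these calls were lost in 8, 7 and 7 of 10 fits, and in 8, 3 and 3 of the 11 other analyses.

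In these mice without Notch blockade, 2 of 7 tested Notch readouts rose, beside 1.94% of all genes. Nrarp, a feedback inhibitor that Notch induces, was at 0.886, 1.05, 0.715, 1.14 and 1.22 CPM at 15 hours and 1.97, 2.81, 2.83, 2.88 and 3.00 CPM at 7 days, low at both times and without overlap (log2 1.43 ± 0.20, adjusted p = 0.00814). Dtx1, a ubiquitin ligase gene of the pathway, had 12.1, 8.02, 4.87, 9.82 and 8.95 CPM and 26.2, 21.1, 22.5, 18.2 and 15.1 CPM, also without overlap (log2 1.24 ± 0.23, adjusted p = 0.0223). The Nrarp call held throughout the other analyses and left-out libraries, while that of Dtx1 was lost in 4 of 10 fits without a library and in 4 of the 11 other analyses, the GC-corrected one included (0.89, adjusted p = 0.0759). None of 9 Notch receptors and ligands was called, with a median of 0.22.

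None of 19 chaperones of the endoplasmic reticulum and genes of the unfolded protein response was called, and all 19 had a log2 difference below 0 (median -0.61, lowest adjusted p = 0.0643). Hspa5, which encodes the chaperone BiP, had 3048, 1114, 2560.4, 2472 and 1336 CPM at 15 hours and 749.7, 1353, 1005, 1096 and 1435 CPM at 7 days. The 15-hour libraries fell apart into 3 high ones (replicates 1, 3 and 4) and 2 within the 7-day range, and the difference was -0.90 ± 0.31 (adjusted p = 0.163). The count for this list was 0 in 8 of the 11 other analyses and reached 17 of 19 in 1 of them. Derl3, a gene of protein export from the endoplasmic reticulum that was on the plasma cell list, had 167, 75.0, 169, 145 and 72.3 CPM and 31.4, 43.0, 32.2, 47.4 and 67.9 CPM. It was called lower (log2 -1.50 ± 0.31, adjusted p = 0.0343), with 15-hour replicate 5 just above 7-day replicate 5, a call lost in 7 of 10 fits without a library and in 5 of the 11 other analyses.

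Stress and hormone-response lists showed single calls. Rbm3, a cold-inducible RNA-binding protein gene, had 8.37, 6.73, 6.98, 12.2 and 9.11 CPM and 12.4, 20.0, 16.6, 15.8 and 15.7 CPM, without overlap (log2 0.89 ± 0.18, adjusted p = 0.0343). Klf4 was the 1 called gene of 14 immediate early genes (log2 0.51 ± 0.11, adjusted p = 0.0393), and Cdkn1a the 1 of 12 glucocorticoid-responsive genes. Over all genes, 1.94% were called higher and 0.574% lower. The Klf4 call was lost in 8 of 10 fits without a library and in 7 of the 11 other analyses, and the Rbm3 call in 7 and 3. None of 14 heat shock genes, 11 tested integrated stress response genes or 20 interferon-stimulated genes was called, with medians of -0.05, -0.02 and 0.06.

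Genes of other cell types varied by single libraries. Krt4, a keratin of squamous epithelium, had 5.83, 104, 355, 0.569 and 10.6 CPM at 15 hours and at most 0.131 CPM at 7 days, and Aldh3a1 had 0.972, 16.7, 30.7, 0.388 and 15.3 CPM and at most 0.368 CPM. Both were called lower (adjusted p = 0.0375 and 0.0383), with 15-hour replicates 2 and 3 far above the rest of their group for Krt4, and both calls were lost in 7 of 10 fits without a library. Bpifa1 of airway epithelium reached 6176 CPM in 15-hour replicate 5 and at most 48.6 CPM in the other nine libraries. The same library held 3770.3 CPM of Lyz2, the lysozyme gene of macrophages, against 45.6 to 289 CPM elsewhere. Cd209a, of dendritic cells, was the 1 called gene of 13 macrophage and dendritic genes, beside 0.574% of all genes called lower. It was at 3.83, 3.95, 4.06, 4.01 and 3.46 CPM and 1.58, 2.03, 2.02, 2.51 and 2.83 CPM (log2 -0.81 ± 0.17, adjusted p = 0.0383), a call lost in 8 of 10 fits without a library. Rag1, which marks developing lymphocytes, was at 41.0, 186, 7.69, 0.137 and 0.0833 CPM at 7 days and at 0, 11.2, 0.0325, 0.0259 and 0.0321 CPM at 15 hours, so that 7-day replicates 1, 2 and 3 and 15-hour replicate 2 held it. None of 9 T cell genes was called, with all 9 above 0 (median 2.18).

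Differences with time were larger in transcripts of high GC content. Genes called higher had a median GC content of 54.8%, against 49.6% over all genes tested and 51.4% over those called lower. In the 39 genes with 66% GC or more, the median log2 difference was 1.24 and 17 (43.6%) were called higher. In the 241 genes with 62 to 66% it was 0.40 and 36 (14.9%) were called higher, and none was called lower in either bin. Below 58% GC the medians lay between -0.05 and 0. The ratio of the median CPM of genes with at least 66% to that of genes under 38% was 0.244 to 0.388 at 15 hours, 0.413 to 0.964 at 7 days and 0.0574 to 0.110 at 5 days, so the groups did not overlap in it. Its part in any 1 result was not tested beyond a fit with a GC content offset, which called 295 genes, 282 of them shared with the 447.

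Scand1, at 68.4% GC, led the named genes of this kind. It had 2.17, 2.26, 1.01, 3.02 and 2.44 CPM at 15 hours and 23.6, 22.9, 15.5, 24.2 and 44.7 CPM at 7 days. The groups did not overlap and the difference was 12.0-fold (log2 3.58 ± 0.34, adjusted p = 0.000926), and with the GC offset 2.79 (adjusted p = 0.00188). Dbp, at 61.6% GC, went from 3.72 to 3.39 with the offset, and Per2 (1.63), Per3 (1.56), Arntl (-1.87) and Npas2 (-1.62) kept nearly the same values. Of the 42 tested cytosolic ribosomal protein genes, 2 were called higher, beside 1.94% of all genes. They were Rplp2 (log2 1.13 ± 0.22) and Rpl27 (log2 1.53 ± 0.30), both under 7 CPM in each library. Ribosomal protein genes have many processed copies in the genome, so their counts are uncertain.

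**Figure D4:**
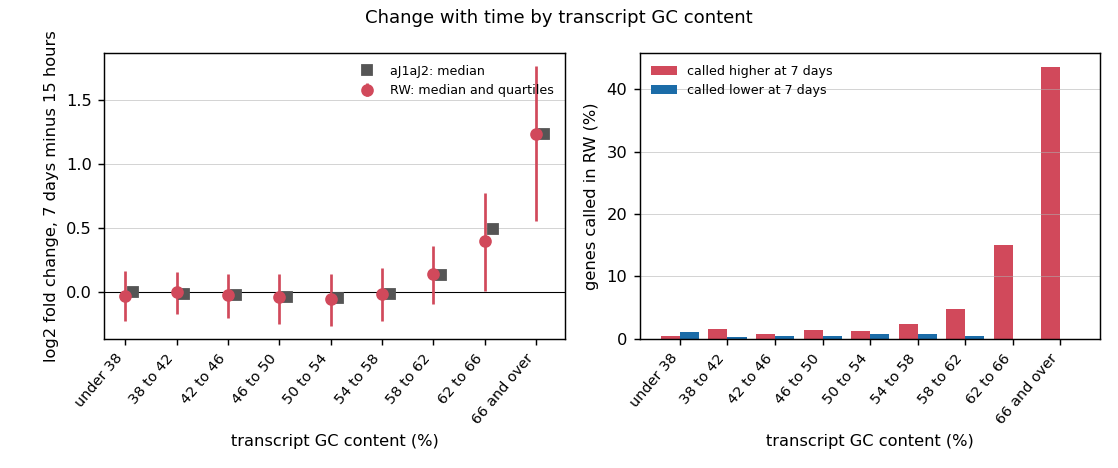
Change between 15 hours and 7 days by GC content of the longest GENCODE M21 transcript. The left panel gives the log2 fold change (RW, median with quartiles, red circles, and aJ1aJ2 median, grey squares), the right panel the percent of genes called higher (red) or lower (blue) in RW. The median reaches 1.24 and the share called higher 43.6% in genes of 66% GC or more.

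The same 2 times in mice given anti-Jag1 and anti-Jag2 share no library with the RW comparison but come from the same pair of ID series. There 994 of 17369 genes were called (5.72%), 574 higher (3.30%) and 420 lower (2.42%). Of the 447 genes called in RW, 431 were tested there and 404 (93.7%) had the same sign, against 60.4% of all 17230 genes tested in both. The genes called in both numbered 198, 170 higher and 28 lower, and none had opposite directions. They were 44.3% of the RW calls and 19.9% of the aJ1aJ2 calls.

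The clock and liver lists gave more calls there. In aJ1aJ2 mice, 11 of 13 E-box-phase genes were higher (median 2.08) and 3 of 5 activator-phase genes lower, and Dbp went from 2.16, 3.62, 2.75, 5.27 and 5.12 to 87.5, 69.5, 115, 124 and 142 CPM (log2 4.83 ± 0.32, adjusted p = 7.98e-05). All 20 liver genes were called higher (median 4.93), with Alb going from 4.89, 2.28, 6.48, 5.04 and 10.5 to 265, 482, 222, 249 and 705 CPM. The 15-hour libraries of aJ1aJ2 mice were thus lower in Alb than all RW libraries of that time. Collagens gave 2 called lower of 23 (median -0.36), Col3a1 among them (log2 -1.36 ± 0.21, adjusted p = 0.00367), and Pdgfra was not called (log2 0.08 ± 0.18, adjusted p = 0.847).

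**Figure D5:**
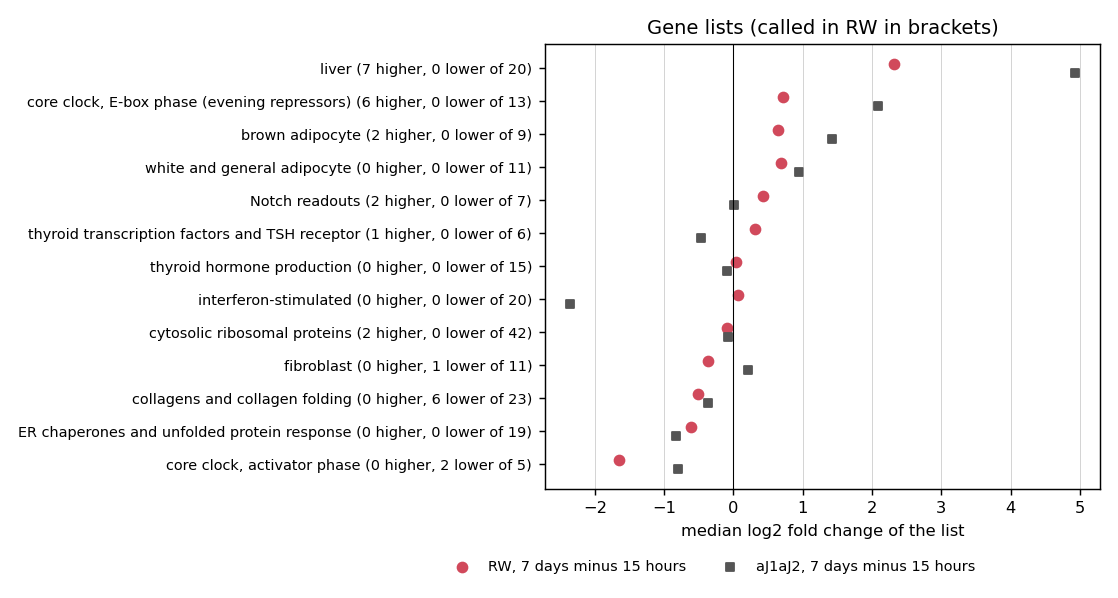
Median log2 fold change (7 days minus 15 hours) of 13 gene lists in RW (red circles) and aJ1aJ2 (grey squares) mice, with the number of genes called in RW in brackets. Liver genes and E-box-phase clock genes lie to the right and the activator-phase genes to the left of 0 in both, while the interferon-stimulated genes lie near 0 in RW and at -2.36 in aJ1aJ2.

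The difference between the 2 time courses was tested directly as an interaction. It called 58 of 18487 genes (0.314%), of which 5 were among the 447. Among the genes of the clock list, Ciart was the 1 with a call, 0.87 in RW against 2.88 in aJ1aJ2 (difference -2.02 ± 0.36, adjusted p = 0.0231). For Dbp the difference was -1.12 ± 0.39 (adjusted p = 0.253), for Arntl 0.65 ± 0.38 (adjusted p = 0.549) and for Alb -3.30 ± 0.77 (adjusted p = 0.0806), none called. Of the 20 liver genes 2 were called in it, Fgb (difference -4.06 ± 0.84, adjusted p = 0.0439) and Mup17 (-4.21 ± 0.85, adjusted p = 0.0404), neither of them called in RW itself. Interferon-stimulated genes gave 11 calls of 20 in this test, and 18 of the 20 were called lower at 7 days in aJ1aJ2 mice. The sums of the list in aJ1aJ2 mice were 289 to 905 CPM at 15 hours and 114 to 210 CPM at 7 days. In RW mice they were 167 to 257 CPM at 15 hours and 158 to 266 CPM at 7 days. The aJ1aJ2 libraries at 15 hours thus lay above all RW libraries of both times. The number of calls in the interaction ran from 6 to 146 with 1 library left out.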

How the data were processed

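Gene counts and FPKM values were deposited by the authors for 50 thyroid libraries, and no column lacked a sample. The submitters' processing notes name GSNAP, a read aligner, and limma, while no source used here gives the genome build, the annotation or the counting rule. The deposited counts are whole reads per gene, taken as raw. The FPKM values deposited by the authors equal those counts divided by gene length and a factor per library, and this factor follows the library total within 0.377% (CV) over the 10 RW libraries used here but not over all 50 (8.70%), so levels at 5 days are given as CPM only. Identifiers were named from GENCODE and RefSeq tables (52403 of 52636 matched).

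Counts were analysed in R 4.3.3 with edgeR 4.0.16 (filterByExpr at 10 reads, 15 in total, TMM, robust quasi-likelihood fit, two-sided, Benjamini-Hochberg, called below 0.05), separately for RW, for aJ1aJ2, and over 20 libraries for the interaction. Alternatives used DESeq2 1.42.0, limma 3.58.1 (voom, or log2 of FPKM plus 0.1 or 1), other filters, covariates and left-out libraries. On simulated data for the RW comparison (17561 genes) the test recovered 77% of 2-fold and 92% of 4-fold changes, with 7 false calls among 176. Of 2-fold changes it recovered 45% for the aJ1aJ2 comparison and 40% for the interaction. The changed genes were drawn from those above the median level, so recovery of genes of few reads was not measured. Named genes were the 10 higher and 10 lower called genes of largest fold without overlap and at least 5 CPM, up to 4 called genes of each of 52 lists, the thyroid and clock lists, the 20 most abundant genes and 1 marker for each cell type. Some genes of these lists enter the counts and are not reported by name. The genes of the lists were chosen with earlier results of these data known, while the libraries were taken from their titles. Within a group, counts of any 2 libraries differed well beyond sampling noise (chi-square per degree of freedom at least 17.1). No 2 thus look like repeat reads of 1 library, and each was counted as 1 replicate. This cannot show that libraries came from separate animals, since pieces of 1 gland could also differ. GC content was read from the longest GENCODE M21 transcript, and promoters come from a RefSeq table of GRCm38.p6.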

Additional observations from a re-analysis of the deposited data

Results flagged for a closer look

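In 37 of 196 groups of 5 libraries examined (18.9%), 1 library stood apart from the other four by a gap above Dixon's 95% critical value of 0.71. Chance gives about 1 in 20 only for independent groups of normally distributed values. The groups here share libraries, lists hold some of the single genes examined, and the distribution of CPM was not tested. The 18.9% therefore cannot be set directly against that rate. RW 7-day replicate 1 stood apart high in the liver list (summed 3079 CPM) and in Cyp3a11 (80.3 CPM), Mug1 (55.3), Abcc2 (12.8), Uox (44.0), Apoa5 (19.2), Pzp (86.0), Fabp1 (28.7), Hrg (21.3), Mup20 (6.97), Mup3 (87.7) and Apoa2 (104), and low in Nrarp (1.97). RW 7-day replicate 5 stood apart high in the cytosolic ribosomal protein list (2382 CPM), the antioxidant enzymes (3019), the glucocorticoid-responsive genes (2021), the integrated stress response (455) and the Schwann cell and nerve list (378), and in Cox8a (199), Rplp2 (6.46) and Fst (7.08).

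RW 15-hour replicate 5 stood apart high in the airway epithelium list (10765 CPM), the acute phase and neutrophil granule list (10456), the macrophage and dendritic list (3976), the salivary gland list (608) and the immediate early genes (537), and in Col3a1 (437 CPM). RW 15-hour replicate 3 did so in the squamous epithelium list (1145 CPM), RW 15-hour replicate 4 in Col6a2 (161 CPM), and RW 15-hour replicate 2 in the T cell list (40.4), the thymocyte list (73.2) and the red blood cell list (563). At 7 days RW replicate 2 stood apart high in the thymocyte list (454 CPM), the proliferation list (164) and Aldh3a1 (0.368) and low in Col5a3 (14.7), and RW replicate 4 stood apart low in Otop1 (9.42). For Ciart the time course differed between RW and aJ1aJ2 by -2.02 on the log2 scale in the interaction test.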

How the results depend on the processing

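None of the 50 named genes with a call changed sign in the 11 other analyses. List medians near 0 did with the GC content offset, for endothelium (0.02 to -0.01) and immediate early genes (0.01 to -0.03). The 447 RW calls became 1336 with DESeq2 (875 higher, 461 lower), 2944 with voom and library quality weights (1577 and 1367), 762 with a skeletal muscle covariate (503 and 259), 281 without a count filter, 186 on log2(FPKM + 0.1) without a low-value filter and 295 with a GC content offset, added after seeing the data (213 and 82). RLE size factors (419), 1 fit over 20 libraries (632), log2(FPKM + 0.1) (362) and log2(FPKM + 1) (300) stayed within 1.5 times. Leaving out 1 library gave 146 (without RW 15-hour replicate 3) to 1416 (without RW 7-day replicate 5). Replicate numbers did not pair the libraries (correlation of deviations -0.31 to 0.28, no library closest to its own number), and with the replicate block 243 genes were called (193 shared), 89.3% of them higher. The 994 aJ1aJ2 calls became 2084 with DESeq2, 1696 in 1 fit over 20 libraries, 5653 with voom, 2299 with the muscle covariate and 348 with the replicate block, and 603 to 1775 with 1 library left out. The 58 interaction calls became 378 with DESeq2, 38 without a count filter, 364 with voom, 20 on log2(FPKM + 0.1), 26 with the replicate block, and 6 to 146 with 1 library left out. On log2(FPKM + 1) and on log2(FPKM + 0.1) without a low-value filter limma called 0 in the interaction, with 1582 and 2240 genes at an unadjusted p below 0.05. The cause of these changes was not tested.

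Of the 50 named genes with a call, 49 kept it with DESeq2, 48 with RLE size factors and 48 with voom, 43 with the GC offset, 31 with the replicate block and 24 on unfiltered FPKM. Depth limits genes of few reads: at these totals a gene at 1 CPM holds about 19.6 to 35.8 reads in a library.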

Other observations

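A few called genes outside the lists, chosen after their values were seen, are given as single values and stand for no pathway. Fasn, the fatty acid synthase gene, rose by a log2 difference of 1.39 (adjusted p = 0.0242), Agpat2, an enzyme gene of triglyceride synthesis, by 1.24 (adjusted p = 0.0239), and Aacs, which activates acetoacetate for lipid synthesis, by 0.80 (adjusted p = 0.0132). Cebpa, a transcription factor gene of fat and liver, rose by 0.99 (adjusted p = 0.0171). The fixed lists of cholesterol synthesis and uptake (17 genes) and of general adipocyte genes (11) gave no call. The same 4 genes were called higher in aJ1aJ2 mice, at 2.42 for Fasn, 1.33 for Agpat2, 1.07 for Aacs and 1.04 for Cebpa.

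Kdelr3, a receptor gene that returns proteins to the endoplasmic reticulum, fell by 0.99 on the log2 scale (adjusted p = 0.0311), Fkbp14, a collagen-folding isomerase gene, by 0.48 (adjusted p = 0.0383), and Sar1a, a GTPase gene of vesicle budding, by 0.46 (adjusted p = 0.0484). These 3 were chosen in the same way, while the fixed list of 19 chaperones of the endoplasmic reticulum gave no call. None of the 3 was called in aJ1aJ2 mice, where Kdelr3 differed by -1.06, Fkbp14 by -0.40 and Sar1a by -0.34. The difference between the 2 treatments was not called for any of them.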
